A study of Mus musculus with 230 samples.

Results

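Single sensory neurons of 1-month-old mice were compared between injured and intact dorsal root ganglia, gene by gene and cell by cell. The members were the 39 single-cell count columns named for the L4 or L5 ganglion at that age, 21 labelled injured (L4R and L5R names) and 18 labelled intact (L4L and L5L names), of 87 RNA columns in the series. A cell was kept with at least 50000 endogenous counts outside CT010467.1, the feature with the most counts, which left 18 injured cells (11 named L4, 7 named L5) and 13 intact cells (10 named L4, 3 named L5), or 31 in all. All mice were C57BL/6 X CAST/Ei crosses, the injured cells came after sciatic nerve injury, and the intact cells carry the label intact with no sham operation named. Ganglia were dissociated with enzymes and neurons were picked by hand. The membrane of each cell was lysed, the nucleus was taken for bisulfite sequencing, and the remaining cytoplasm went to SMART-seq2, so these RNA values are cytoplasmic. The time between injury and collection, the animals behind the cells, and the meaning of the last letter of a cell name (S, M or L) are not given in the sources used here. Because no animal is named, the cells of a group count as 1 sample and no test between the cell groups was made.

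Sensory neurons of the dorsal root ganglion send 1 axon branch to the periphery and another to the spinal cord. When the peripheral branch is cut or crushed, transcription factors such as Atf3, Jun and Sox11 are known to switch on a growth program that includes Sprr1a, Gap43 and the neuropeptides Gal and Npy, while many ion channel and transmitter genes are known to go down. A ganglion also holds neurons whose axons do not run in the sciatic nerve, and these are not cut by a sciatic injury. Jun and Atf3 belong to the AP-1 family, whose dimers are known to bind the letters TGAGTCA, which read TGACTCA on the other strand.

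The genes 4-fold higher in the injured cells included growth and neuropeptide genes that most intact cells held below 20 CPM (CPM is a cell's counts of the gene scaled to its total, without spike-ins and CT010467.1). Sprr1a, a small proline-rich protein tied to axon growth, averaged 1740 CPM over the injured and 23.6 over the intact cells, the latter mostly from 1 cell with 304 CPM. Neuropeptide Y (Npy) averaged 1360 against 3.06 CPM, neurotensin (Nts) 343 against 0.0104 CPM, the orphan receptor Gpr151 192 against 3.65 CPM, and Flrt3, a cell adhesion protein of growing axons, 228 against 13.3 CPM. Sprr1a, Npy, Nts and Gpr151 reached 20 CPM in 7 or 8 of the 11 injured L4 cells and in at most 1 of the 7 injured L5 cells, and Flrt3 in 8 and in 5. Of the 13 intact cells, 3 held Flrt3 at that level.

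Promoter sequences of the named genes were taken from RefSeq (GRCm38.p6), which held a window of 250 bases before to 50 bases after the start for 11 of the 15 named genes that were higher and 8 of the 10 that were lower. The letters TGANTCA (read on both strands, which are the same for this motif) stood in 3 of the 11 genes that were higher (27.3%), in 1 of the 8 that were lower (12.5%) and in 2565 of all 32851 windows (7.81%). The cyclic AMP response element TGACGTCA stood in 0 of the 11, in 1 of the 8 (12.5%) and in 588 windows (1.79%). N stands for any base, so the count over all windows also takes in TGAATCA and TGATTCA and is wider than the AP-1 letters. A gene with several windows was counted once if any window held the letters. The 3 that follow are the genes that were higher and hold TGANTCA, shown from 250 bases before the start up to it, 5′ to 3′ on the gene's strand, with the matched letters in capitals.
Sprr1a (GRCm38.p6, minus strand, chr3:92485882-92486131): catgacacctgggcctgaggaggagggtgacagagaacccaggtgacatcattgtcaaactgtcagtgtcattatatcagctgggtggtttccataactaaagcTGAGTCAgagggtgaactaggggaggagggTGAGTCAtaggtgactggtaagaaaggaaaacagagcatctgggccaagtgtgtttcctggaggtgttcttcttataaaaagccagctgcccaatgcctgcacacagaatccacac
Nts (GRCm38.p6, minus strand, chr10:102490419-102490668): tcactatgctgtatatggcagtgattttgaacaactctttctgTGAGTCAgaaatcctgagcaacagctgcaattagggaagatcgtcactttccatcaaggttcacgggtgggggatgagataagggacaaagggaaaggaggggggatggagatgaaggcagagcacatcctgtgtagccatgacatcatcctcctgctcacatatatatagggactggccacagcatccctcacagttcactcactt
Plaur (GRCm38.p6, plus strand, chr7:24462233-24462482): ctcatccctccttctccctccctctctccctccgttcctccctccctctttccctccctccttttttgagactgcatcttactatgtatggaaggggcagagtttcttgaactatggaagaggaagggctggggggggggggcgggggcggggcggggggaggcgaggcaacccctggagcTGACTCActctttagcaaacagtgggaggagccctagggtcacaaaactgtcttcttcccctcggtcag
The matches of Sprr1a begin 146 and 116 bases before its start, the match of Nts 207 bases before and that of Plaur 69 bases before. A match is a string of letters only, and no binding was measured here.

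The kept injured cells held 79135 to 8529686 counts outside CT010467.1 (median 2455619) and the kept intact cells 95399 to 7364408 (median 631966). CT010467.1 took 25.3% to 89.7% of the endogenous counts of an injured cell and 27.1% to 80.6% of those of an intact cell. A median of 11465 genes had a count in injured and 10901 in intact cells. The summed level of 12 pan-neuronal genes ran from 843 to 27500 CPM in injured cells (median 17000). In intact cells it ran from 24.9 to 21800 CPM (median 14700). In the injured cell with the lowest sum, Tubb3 made up nearly all of it. The neuronal tubulin Tubb3 was above 800 CPM in all 31 cells but 1. That cell, intact L4L4M, held no Tubb3, only 560 genes and 42.5% mitochondrial counts. The other 2 cells rich in mitochondrial counts were injured L4R8M with 68.3% and 607 genes and intact L4L8M with 51.1% and 1140 genes. L4R8M also held 3970 CPM of Apoe, which is high in satellite glia. Of 7 satellite glia markers, the summed level ran from 11.3 to 7960 CPM in injured cells (median 172) and from 0 to 3740 CPM in intact cells (median 235), and Cdh19 was 0 in every injured cell. Of 9 Schwann cell markers, it ran from 682 to 12600 CPM (median 1950) and from 589 to 3920 CPM (median 1230), and Mag was 0 in every cell of both groups. The 9 immune markers summed to at most 37.9 CPM in an injured and 19 CPM in an intact cell. The 6 markers of fibroblasts and vessels ran from 0 to 2720 CPM (median 23.2) and from 0 to 3940 CPM (median 29.6), and Cldn5 was 0 in every cell.

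Cells stood apart from their labels in both directions, and this bears on each mean that follows. The injured cells named L5 held little of Sprr1a (0 to 2.40 CPM) and Npy (0 to 4.79 CPM). In 4 of the 11 injured cells named L4 (L4R2, L4R8M, L4R13S and L4R16), Sprr1a was at 28 CPM or less. One intact cell, L4L9M, held 304 CPM of Sprr1a and 335 CPM of Atf3. It was the shallowest kept intact cell, with 95399 counts outside CT010467.1, so a low CPM in it rests on few counts. Every other intact cell held less than 20 CPM of Sprr1a. The cells also differed in neuron class. Mrgprd, a receptor of non-peptidergic nociceptors, stood above 1000 CPM in 3 injured cells, all named L5, with 2450 CPM in L5R5S, 2720 CPM in L5R6S and 1270 CPM in L5R8S. In intact cells it did so in L4L5S with 1320 CPM and in L5L22m with 1640 CPM. Pvalb, a calcium-binding protein of muscle afferents, stood above 1000 CPM in 1 injured cell (L4R2, 1750 CPM) and in 3 intact cells (L4L2L with 2660 CPM, L4L7M with 1270 CPM and L5L19L with 1200 CPM). The part of this difference in neuron class in the results that follow was not tested.

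A gene was described where at least 5 kept cells held it at 20 CPM or more, which left 8582 genes. It was counted as shifted where the ratio of the mean CPM over cells and the ratio of CPM from pooled counts were both at least 4-fold in the same direction, after adding 1 CPM to each level. By this rule 65 genes were higher in injured cells (0.757% of those described) and 17 were lower (0.198%). The median log2 ratio over all 8582 genes was 0.06. Of the 65, 28 reached 20 CPM in no intact cell and 18 stood at the least number of cells the filter allows, 5. The ratio stayed past 4-fold whichever 1 cell was left out for 51 of the 65 and for 6 of the 17. The counts themselves ran from 45 without L4R9M to 75 without L5L22m for higher genes and from 13 without L4L7M to 37 without L4R2 for lower genes. Of the 15 genes named as higher, 13 stayed past 4-fold under every omission, and of the 10 named as lower, 6 did.

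The higher genes were held by a subset of injured L4 cells. At 20 CPM, an injured L4 cell held 6 to 61 of the 65 genes (median 37), an injured L5 cell 8 to 16 (median 12), an intact L4 cell 0 to 25 (median 6.5) and an intact L5 cell 6 to 13 (median 8). Within the injured L4 cells, L4R6L held 61, L4R12m and L4R9M 60 each, L4R14L 56, L4R4M 54, L4R15M 37 and L4R10S 27. The remaining 4 held 6 to 8, which lies within the range of the intact cells. The intact cell with 25 was L4L9M. A single cell, L4R9M, had the highest level among the kept injured cells for 22 of the 65 genes. Of the 17 lower genes, injured L4 cells held 0 to 6 at 20 CPM (median 0) and injured L5 cells 0 to 2 (median 0), against 1 to 10 (median 5) in intact L4 and 6 to 11 (median 6) in intact L5 cells. Since the 65 and the 17 genes were chosen on these cells, these counts describe which cells carry them and are no test.

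**Figure D1:**
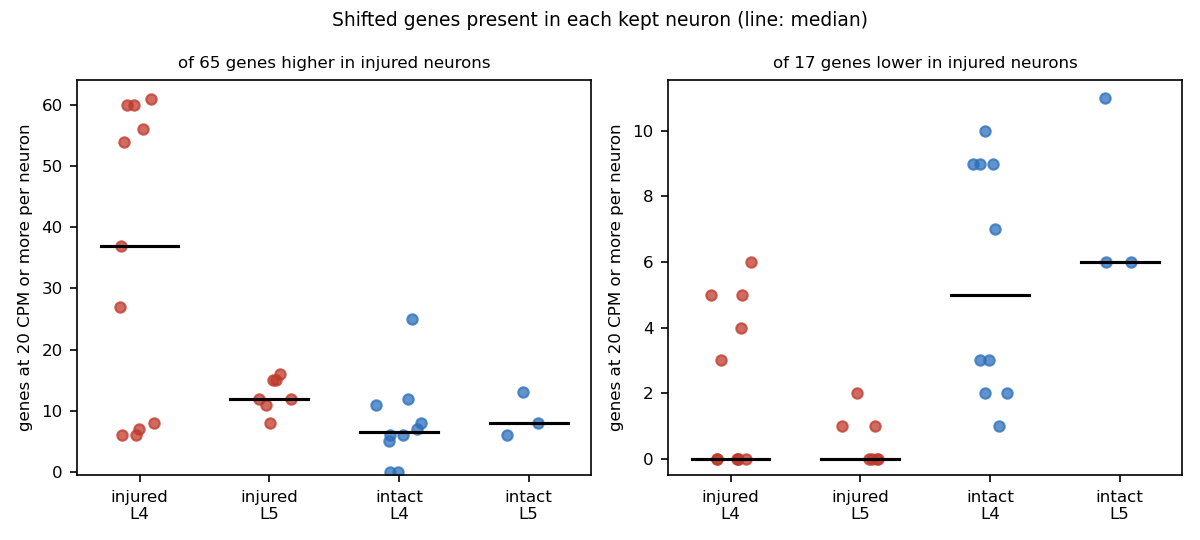
Each point is 1 kept cell; the vertical axis counts how many of the genes 4-fold higher (left) or 4-fold lower (right) in injured cells the cell holds at 20 CPM or more, by condition and ganglion, with a line at the median. Injured L4 cells spread from 6 to 61 of 65 higher genes, while the 7 injured L5 cells lie between 8 and 16.

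The genes that follow were named by a rule, the 15 higher and 10 lower with the largest difference between the groups in the share of cells at 20 CPM or more. Flrt3 (chromosome 2, 140650914 to 140671469) had the widest gap. In injured L4 cells it ran from 0 to 746 CPM (median 297), in injured L5 cells from 1.09 to 118 CPM (median 52.4), in intact L4 cells from 0 to 41.9 CPM (median 0.202), and in the 3 intact L5 cells it was 0, 9.71 and 70.2 CPM. It reached 20 CPM in 13 of 18 injured and in 3 of 13 intact cells. The log2 ratio was 4.0 over all cells, 5.04 within L4 and 0.95 within L5. Of the 7 injured L5 cells 5 held it at 20 CPM or more, and their levels overlapped those of the intact L5 cells.

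Sprr1a (chromosome 3, 92483952 to 92485895) was at 20 CPM or more in 8 injured cells, all named L4, with 8060 CPM in L4R9M, 7280 in L4R4M, 7120 in L4R15M, 3610 in L4R12m, 3440 in L4R14L, 1430 in L4R6L, 303 in L4R10S and 28 in L4R2. That was 8 of 18 injured cells against 1 of 13 intact cells. The pooled counts gave 1850 CPM (1840 to 1870, counting error only) in injured and 0.912 CPM (0.628 to 1.28) in intact cells. The log2 ratio of the means was 6.15, and without the intact cell L4L9M it was 10.49. Within L5 it was 0.69, where no cell reached 20 CPM.

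Gpr151 (chromosome 18, 42578020 to 42579652) followed the same cells. It ran from 0 to 917 CPM in injured L4 cells (median 294) and reached at most 20.9 CPM in injured L5 cells. Among intact cells it was highest in L4L9M, at 31.4 CPM (a few counts at that cell's depth). Its log2 ratio was 5.38, with 6.23 within L4 and −0.41 within L5. Plaur, the receptor that holds the protease urokinase at the cell surface, averaged 41.3 against 1.27 CPM. It reached 20 CPM in 8 injured and 0 of 13 intact cells (the count of cells alone allows up to 24.7%). At 5 CPM, 44.4% of injured and 15.4% of intact cells held Plaur. Its ligand urokinase, Plau, averaged 51.3 against 5.17 CPM, with log2 ratios of 4.18 within L4 and 1.56 within L5, and with 3.08 over all cells but 4.17 without intact L5L22m. Mmp16, a membrane-bound matrix protease, averaged 63.9 against 11.2 CPM and reached 20 CPM in 10 injured and 2 intact cells. The gap in its share of cells depended on the threshold. At 5 CPM it was 55.6% of injured against 46.2% of intact cells, and at 100 CPM 22.2% against 0%. With every cell thinned to 50000 counts, 38.9% of injured and 30.8% of intact cells held a count of Mmp16. Receptor and ligand were both among the 15 named genes, and a few injured L5 cells held them at 20 CPM too (2 of 7 for Plaur, 3 of 7 for Plau).

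**Figure D2:**
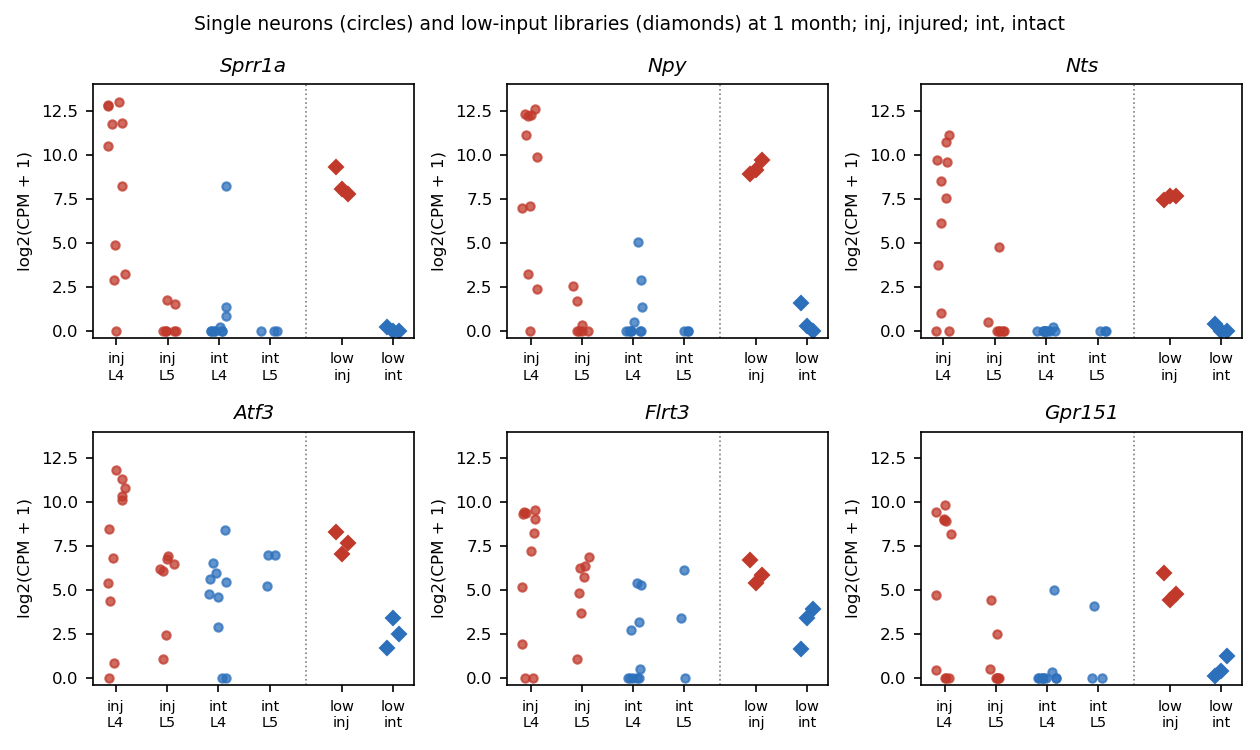
Levels of 6 genes in every kept cell and every 1-month low-input library, as log2(CPM + 1); each circle is 1 cell and each diamond 1 library. For Sprr1a, Npy and Nts the high injured cells are named L4, and the 3 injured low-input libraries lie above the 3 intact ones.

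Neuropeptides included the largest ratios. Npy (chromosome 6, 49822710 to 49829507) stood at 6230 CPM in L4R6L, 5080 in L4R4M, 5000 in L4R12m, 4660 in L4R15M, 2270 in L4R14L, 937 in L4R9M, 134 in L4R8M and 126 in L4R10S. No kept injured L5 cell exceeded 4.79 CPM. The only kept intact cell above 20 CPM was L4L9M with 31.4 CPM, which is a few counts at its depth of 95399. The log2 ratio was 8.39, with 8.80 within L4 and 1.02 within L5, and 9.65 without L4L9M.

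Nts (chromosome 10, 102481756 to 102490486) reached 20 CPM in 8 injured cells and in none of the 13 intact cells, where it had 1 count in all. The ratio of the pooled CPM was 10300, with a counting interval of 1850 to 407000. Its highest level, 2210 CPM, was in the mitochondria-rich cell L4R8M, and without that cell the log2 ratio was 7.85 in place of 8.41. The order of the cells differed between the peptides: L4R9M, highest for Sprr1a, held only 68.7 CPM of Nts, and L4R12m held 1680 CPM. Among the intact cells left out for low depth, L4L10M held 1 count each of Nts and Npy, in 22434 counts.

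Of the 8 neuropeptide genes known to respond to nerve injury, 6 could be described, all 6 had a ratio above 0, and 4 were past 4-fold (Nts, Npy, Ucn and Gal), with a median log2 ratio of 3.59 (5.30 with genes at 0 in intact cells put at their bound, against 0.06 over all genes). Urocortin (Ucn) averaged 27.7 CPM in injured cells and had no count in any kept intact cell, which makes it at least 305-fold higher when 3 counts are put in for the whole intact group. It reached 20 CPM in 5 cells, all named L4. Galanin (Gal) averaged 485 against 95.1 CPM, but each mean rested on 1 cell: L4R14L held 7320 CPM and intact L4L17S held 1200 CPM. Its log2 ratio of 2.34 became −0.19 without L4R14L and 6.83 without L4L17S. Gal reached 20 CPM in 7 of 11 injured L4 cells, in no injured L5 cell and in 2 of 13 intact cells. The median over these 6 peptides was 4.11 within L4 and −0.13 within L5.

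Among secreted signals, Csf1, the growth factor of macrophages and microglia, averaged 97.4 against 9.74 CPM (log2 ratio 3.20). It was at 20 CPM or more in 8 of 11 injured L4 cells, in 1 of 7 injured L5 cells and in 2 of 13 intact cells, and its ratio was 3.73 within L4 and 0.02 within L5. Follistatin (Fst), which binds and blocks activins, averaged 82.1 against 0.168 CPM, with 6 injured and 0 intact cells at 20 CPM. Of 7 secreted or cytokine pathway genes described, these 2 were past 4-fold and all 7 were above 0, with a median of 0.68.

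The named enzymes and receptors had less even ratios. Cyp1b1, a cytochrome P450 of steroid and retinoid metabolism, averaged 261 against 7.09 CPM, and its highest level of 2830 CPM was in L4R8M. Without the 3 mitochondria-rich cells its log2 ratio was 3.57 in place of 5.02, within L4 it was 6.81 and within L5 it was −1.82. Star, which carries cholesterol into mitochondria for steroid synthesis, averaged 60.3 against 1.00 CPM and reached 20 CPM in 7 injured cells, all named L4, and in no intact cell, with a log2 ratio of 4.93, and of 4.26 without L4R4M. The aldo-keto reductase Akr1b8 averaged 30.6 against 5.86 CPM, and without either L4R4M or L4R9M it was no longer past 4-fold. Pid1, an adaptor protein of insulin signalling, averaged 21 against 3.53 CPM and was no longer past 4-fold without either L4R12m or intact L4L17S. Prokr1, a receptor for prokineticin peptides, averaged 26.5 against 3.11 CPM, with log2 ratios of 2.77 within L4 and 2.66 within L5. Xlr3b, an X-linked gene with near-identical neighbours whose reads the counting could split, had no count in a kept intact cell and averaged 21.8 CPM in injured cells, at least 215-fold higher by the same measure. Of the intact cells left out for low depth, L4L10M and L5L20L each held 1 count of Xlr3b, in 22434 and 27674 counts. Prokr1 stood at 253 CPM (7 counts) in the left-out L5L20L, above the highest kept injured cell (146 CPM).

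All 15 named higher genes were at least 4-fold higher within L4. Within L5, 5 of them were (Nts, Plaur, Xlr3b, Prokr1 and Pid1), 12 were above 0 and 3 were below 0 (Gpr151, Akr1b8 and Cyp1b1). Over all 65, 64 were at least 4-fold higher within L4 and 10 within L5. The L5 comparison has 7 injured and 3 intact cells, and the genes were chosen on the cells of both ganglia together. Whether the ratio differs between L4 and L5 was not tested, since the ganglia name no separate animals.

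**Figure D3:**
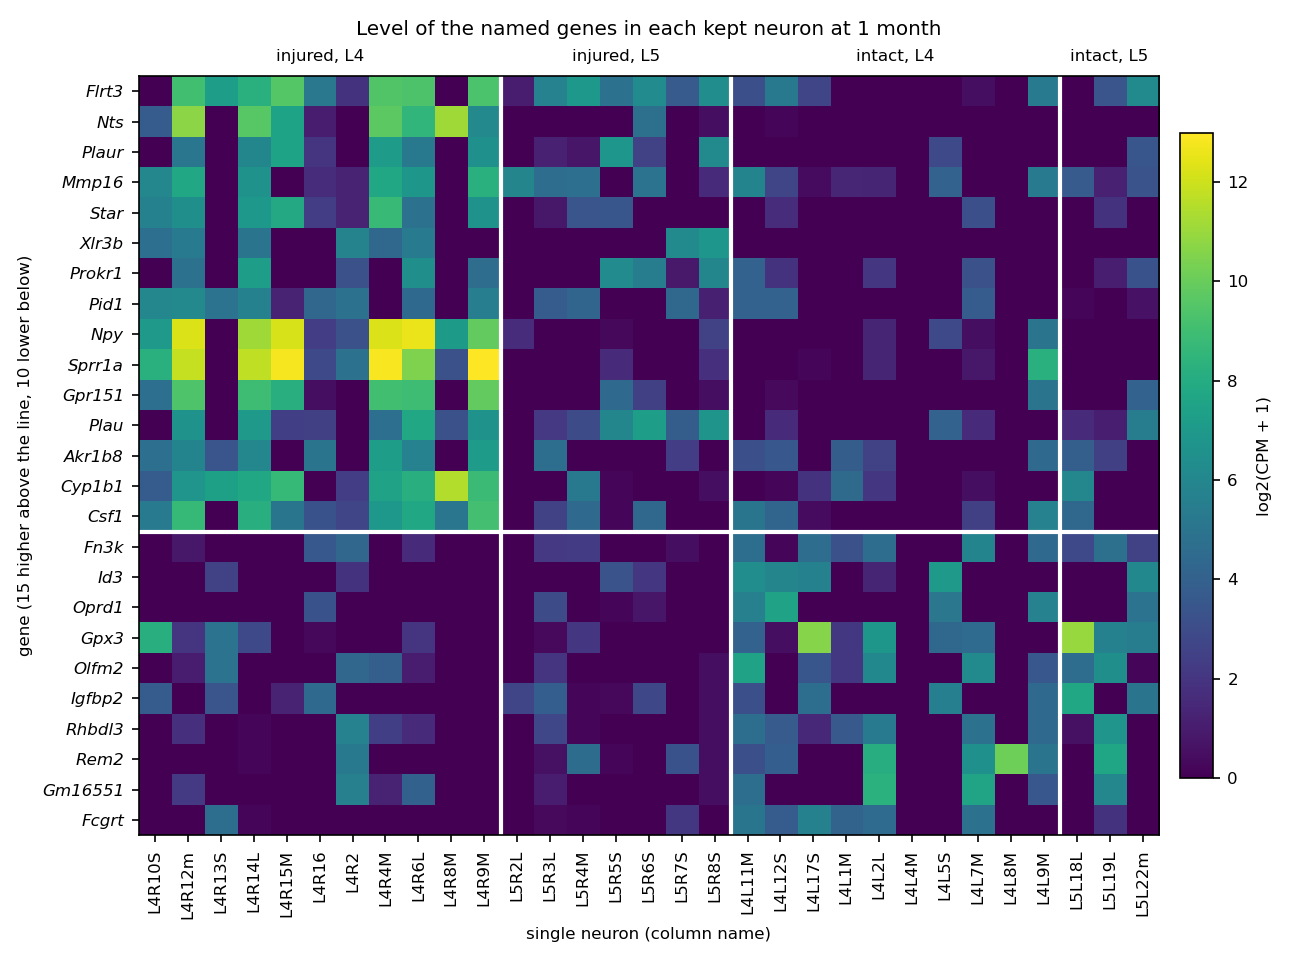
CPM of the 15 named higher and 10 named lower genes (rows) in each kept cell (columns, by condition and ganglion), as colour on a log2 scale of CPM + 1. The higher genes are high together in 6 or 7 injured L4 cells and in no block of L5 cells; the lower genes are scattered over intact cells.

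The lists that follow are read against all 8582 described genes, of which 4663 (54.3%) had a log2 ratio above 0 and 3919 (45.7%) below. Of 12 transcription factors of the injury response that could be described, 10 were above 0 and 2 were past 4-fold, Atf3 and Sox11, with a median of 0.48. Atf3 (chromosome 1, 191170296 to 191218039) averaged 632 CPM in injured and 71.3 CPM in intact cells, with 3630 CPM in L4R9M, 2550 in L4R4M, 1780 in L4R12m, 1300 in L4R6L and 1130 in L4R14L. It was not limited to injured cells: 13 of 18 injured and 10 of 13 intact cells held it at 20 CPM or more, and the 3 intact L5 cells held 36.5, 126 and 126 CPM, as much as the injured L5 cells (1.09 to 120 CPM). Its log2 ratio was 3.13 over all cells, 3.94 within L4 and −0.55 within L5. The neurons had been through enzymatic dissociation, and the level it gives to Atf3 was not measured here. Sox11, a factor of neuronal development and regrowth, averaged 40.5 against 7.39 CPM and fell short of 4-fold without L4R9M, at 1.84. Jun averaged 286 against 146 CPM, with 1.69 within L4 and −0.97 within L5. Immediate early genes, which dissociation is known to raise, were 5 above and 4 below 0 of 9, with none past 4-fold and a median of 0.11; Fos averaged 124 against 160 CPM.

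Of 24 growth and injury effectors described, 23 were above 0 and 9 past 4-fold, with a median of 1.56 over all cells, 2.34 within L4 and 0.13 within L5. Beyond Sprr1a, Gpr151, Plaur and Flrt3, they included Tubb6, a tubulin isotype, at 245 against 9.01 CPM (log2 ratio 4.62, with −1.93 within L5 and 5.26 without intact L4L9M), Sema6a, a guidance protein, at 133 against 11.4 CPM, and Sdc1, a proteoglycan, at 107 against 13.3 CPM. Sdc1 lost the call without L4R9M, since its pooled ratio was then 1.89, and its ratio of 2.92 was 4.13 without intact L5L22m. This list was chosen with earlier results of these cells known and is not independent evidence of a direction.

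All 8 cell death and p53 target genes described were above 0, with a median of 0.46, and 1 was past 4-fold, the cell cycle inhibitor Cdkn1a at 200 against 16.5 CPM (log2 ratio 3.52, and 4.23 without intact L4L5S). All 10 stress response genes described were above 0 with none past 4-fold and a median of 0.66, which was 0.42 without the 3 mitochondria-rich cells. The chaperone Hspa5 averaged 549 against 222 CPM, of which the mitochondria-rich L4R8M held 3920 CPM, and without that cell the means were 351 and 222 CPM (log2 ratio 0.66 in place of 1.30). Of 14 cholesterol genes, 11 were above 0 with a median of 0.40 and none past 4-fold.

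Genes of excitability and synaptic release stood mostly below 0, and none met the 4-fold rule on both ratios. Of 9 sodium channel subunits, 1 was above 0 (median −0.21), of 22 potassium and HCN channel subunits 5 were (median −0.51), and of 15 synaptic genes 3 were (median −0.47), where 45.7% of all described genes were below 0. Among them the potassium channel Kcnd3 had the largest ratio of means, −2.11, at 26.9 against 120 CPM, while its pooled ratio was −0.15. Its ratio was −4.42 within L4 and 1.71 within L5, and it ran from −2.43 to 0.60 as single cells were left out. Kcna2 averaged 126 against 380 CPM, and Snap25, part of the vesicle fusion machinery, 1220 against 2120 CPM. Sensory channels and transmitter receptors were 10 above 0 of 17, with a median of 0.14. Of 11 DNA methylation genes, 5 were above 0 with none past 4-fold; the glycosylase Tdg averaged 30.4 against 10.5 CPM.

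Trophic factor receptors had 1 member past 4-fold in each direction. Gfra1, the receptor for GDNF, averaged 359 against 61.1 CPM, with log2 ratios of 3.07 within L4 and −0.38 within L5, and 2.53 over all cells but 3.49 without intact L4L11M. Gfra3, the receptor for artemin, averaged 21.8 against 240 CPM, but intact L4L17S alone held 2800 CPM and without it the ratio was −0.24 in place of −3.40. Gfra3 marks a subset of peptidergic neurons. Of 4 resting neuropeptides described, none was past 4-fold over all cells. The calcitonin gene-related peptide gene Calca averaged 6000 against 4680 CPM. Substance P's precursor Tac1 averaged 149 against 509 CPM (log2 ratio −1.76), and both means rested on single cells. Without injured L4R10S (1690 CPM) the ratio was −3.10 and past 4-fold, and without intact L4L17S (3310 CPM) it was −0.88. Of 10 markers of large neurofilament-rich neurons, 9 were below 0, with a median of −0.53 (−0.45 within L4, −1.82 within L5). Of 4 markers of non-peptidergic nociceptors described, 3 were above 0, with a median of 0.59 (−1.66 within L4, 0.51 within L5). Of 5 peptidergic markers described, 2 were above 0 (median −0.18). None of these markers was past 4-fold.

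**Figure D4:**
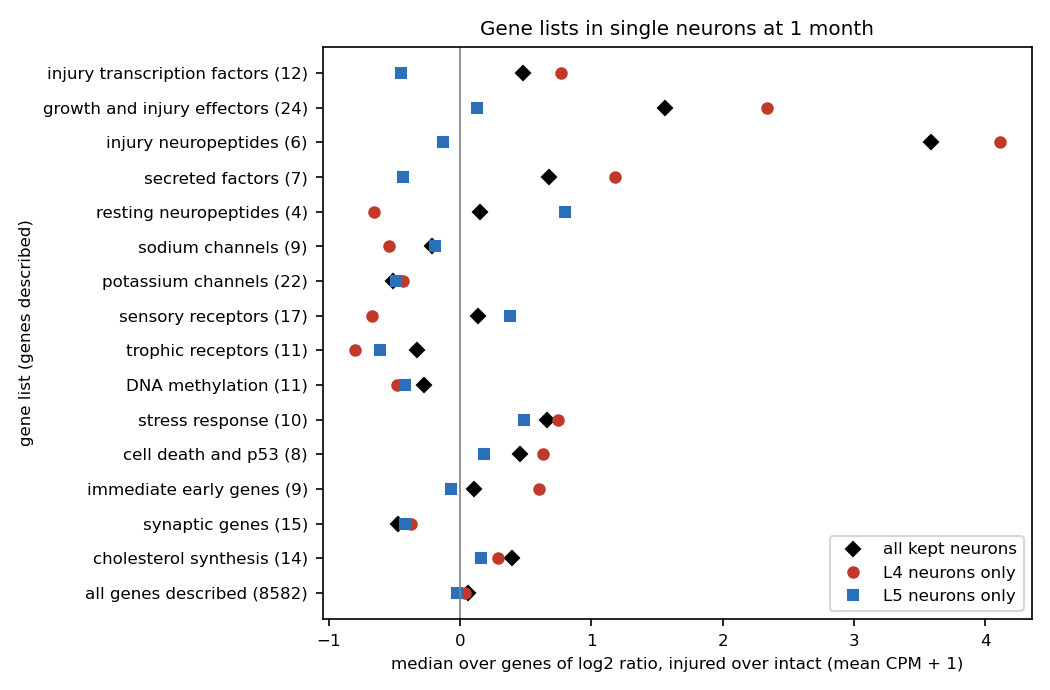
Median log2 ratio of mean CPM + 1 (injured over intact cells) of each gene list, over all cells, within L4 and within L5, with the number of genes described in parentheses. The neuropeptide and growth lists stand to the right over all cells (3.59 and 1.56) and within L4 (4.11 and 2.34), and near 0 within L5 (−0.13 and 0.13).

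The lower genes had small levels and rested on few cells. Oprd1, the delta opioid receptor (chromosome 4, 132110726 to 132144486), averaged 0.895 CPM in injured and 26.2 CPM in intact cells. It was at 20 CPM or more in 0 of 18 injured cells (the count of cells alone allows up to 18.5%) and in 5 of 13 intact cells, with at most 8.50 CPM in an injured cell and 175 CPM in intact L4L12S. Its log2 ratio was −3.84, with −4.18 within L4 and −2.37 within L5, and the pooled ratio was −1.65 without L4L12S. Id3, an inhibitor of helix-loop-helix factors, averaged 1.11 against 29.9 CPM and reached 20 CPM in 0 injured and 5 intact cells. Fn3k, which removes sugar adducts from proteins, averaged 2.22 against 15 CPM, with 0 injured and 6 intact cells at 20 CPM, and its ratio was −1.97 without intact L4L7M.

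Gpx3, a secreted glutathione peroxidase, averaged 18 CPM in injured and 300 CPM in intact cells. All 3 intact L5 cells held it at 44.1 CPM or more, with 2040 CPM in L5L18L, and no injured L5 cell exceeded 3.21 CPM. One injured cell, L4R10S, held 278 CPM, and without it the log2 ratio was −6.36 in place of −3.99. Rem2, a small GTPase that acts on calcium channels, averaged 3.86 against 133 CPM, and its highest level of 1110 CPM was in the mitochondria-rich cell L4L8M, without which the ratio was −3.43 in place of −4.79. Igfbp2, an insulin-like growth factor binding protein, rested on L5L18L with 217 CPM and was −1.29 without it. Olfm2, Rhbdl3, Fcgrt and the noncoding gene Gm16551 averaged 1.58 to 3.94 CPM in injured and 12.8 to 46.1 CPM in intact cells. Rhbdl3 lay just past the threshold at −2.05 and was no longer past 4-fold under 16 of the 31 omissions. Of the 10 named lower genes, 8 were at least 4-fold lower within L4 and 9 within L5.

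The only replicated libraries of this age are the low-input libraries, 3 injured and 3 intact, each made from several neurons. They held 7531967 to 19443627 counts. Whether they share animals with the cells is not given, and in such pooled libraries fewer cells of a type and less RNA per cell cannot be told apart. The genes were picked by values of the cells and not of these libraries. The rule that picked them was set with earlier results of these data known, so the libraries are not independent evidence. Of 14212 genes tested with edgeR's quasi-likelihood test over all 18 low-input libraries, 33 were called higher in injured neurons at 1 month (0.232%) and 0 were called lower (0%), at a Benjamini-Hochberg adjusted p below 0.05. Besides the 3 injured and 3 intact libraries of this age, the 18 come from older mice. The spread behind each SE and p of this fit therefore rests on those ages too. At an unadjusted p below 0.05 by the same edgeR test, 501 genes were higher and 139 lower. DESeq2 called 121 higher and 2 lower, and limma-voom 61 higher and 0 lower. With the replicate number as a block the count was 15 higher and 0 lower.

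Of the 65 genes 4-fold higher in the cells, all 65 were tested in the low-input libraries, 60 had a change above 0, and 12 were called higher (18.5%, against 0.198%, or 17, of the 8582 genes described in cells). Of the 8582 described genes, 3828 had a change above 0 and 4660 below 0 in these libraries. The median log2 change of the 65 was 2.71, against −0.04 over the described genes. The 12 were Sprr1a, Npy, Nts, Ucn, Atf3, Flrt3, Gpr151, Cyp1b1, Fst, Fscn1, Car1 and Ctla2a. Of the 15 named genes, 14 were above 0 and 6 were called (40%), with a median of 3.59. Of the 17 genes 4-fold lower in the cells, 9 were below 0 and 8 above, none was called, and the median was −0.09. For these 17 genes, a p that misses the threshold does not show that levels did not differ.

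Sprr1a stood at 645, 270 and 217 CPM in the injured libraries and at 0.150, 0 and 0 CPM in the intact ones, with no overlap. Of all 14212 genes tested, 1488 (10.5%) had every injured library above every intact one and 1035 (7.28%) every injured library below. The log2 change of Sprr1a was 13.04 ± 1.27 (SE), with an adjusted p of 9.76e-05 by edgeR. Because the intact libraries held 2 counts in all, the ratio is better given from counts, 11900 with a counting interval of 3310 to 98600. Nts stood at 174, 204 and 200 CPM against 0.300, 0 and 0 CPM, a log2 change of 11.19 ± 1.06 (edgeR adjusted p 9.76e-05). Npy stood at 490, 570 and 838 CPM against 2.02, 0.205 and 0 CPM, a log2 change of 9.85 ± 1.33 (edgeR adjusted p 0.00332). The injured and intact libraries did not overlap for any of these, and all 3 were called with the replicate block too.

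Ucn was called at an edgeR adjusted p of 0.000683, with 31.3, 5.96 and 28.5 CPM against 0.225, 0.0342 and 0 CPM, and Gpr151 at 0.0151, with 60.6, 20.7 and 26.1 CPM against 0.0750, 0.342 and 1.38 CPM. Atf3 stood at 317, 131 and 202 CPM against 2.25, 9.81 and 4.67 CPM (log2 change 5.26 ± 0.92). Its adjusted p by edgeR was 0.0274, and 0.0743 with the replicate block. The intact libraries lie below the mean of 71.3 CPM over intact cells, but the CPM of cells and of low-input libraries are scaled differently. Flrt3 was called at 0.0382 (103, 41.8 and 57.9 against 2.17, 9.43 and 14.1 CPM), Cyp1b1 at 0.0297 and Fst at 0.0431, and with the replicate block these had edgeR adjusted p of 0.103, 0.0635 and 0.10. Fscn1, an actin-bundling protein, was called at 0.000993 by edgeR. Car1 and Ctla2a were called at 0.0382 and 0.0314, and with the block had edgeR adjusted p of 0.108 and 0.0986. As each of the 6 libraries was left out in turn, 5 of the 12 stayed called in all 6 fits: Sprr1a, Nts, Npy, Ucn and Fscn1. Gpr151 was called in 3 of the 6 omissions (adjusted p 0.018 to 0.152 by edgeR, lost without either intact replicate 1 or 2 or injured replicate 1). Atf3, Flrt3, Cyp1b1 and Ctla2a were called in 1 of 6 each, with edgeR adjusted p up to 0.186, 0.203, 0.198 and 0.219. Fst and Car1 were called in none of the 6, with edgeR adjusted p of 0.0741 to 0.299 and 0.0746 to 0.270. When only the 6 libraries of this age were fitted, 3 of the 12 were no longer called, Npy, Gpr151 and Flrt3 (edgeR adjusted p 0.0521, 0.0599 and 0.202). Scaling to the spike-ins ended the calls of Flrt3 and Fscn1 (edgeR adjusted p 0.287 and 0.0587). With limma-voom, Cyp1b1, Fst, Car1 and Ctla2a were not called (adjusted p 0.202, 0.0854, 0.0533 and 0.0633). Sprr1a, Nts and Ucn were called in all 14 alternative fits.

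Star, Plaur, Csf1, Plau, Mmp16 and Akr1b8 had every injured low-input library above every intact one, as 10.5% of all tested genes did, and were not called. Star stood at 29.6, 25.1 and 36.1 CPM against 3.07, 1.64 and 0.923 CPM (edgeR adjusted p 0.116) and Csf1 at 38.7, 17.9 and 30.2 CPM against 2.25, 1.64 and 3.0 CPM (0.183 by edgeR). DESeq2 called Star, Csf1 and Plaur of these 6, at 0.00154, 0.00403 and 0.0399. Gal stood at 227, 211 and 112 CPM against 2.32, 10.7 and 0 CPM, with an edgeR adjusted p of 0.0689 and of 0.0258 with the replicate block. Xlr3b (log2 change −0.45), Prokr1 (0.28) and Pid1 (0.48) overlapped between the groups. Among the lower genes, Oprd1 alone did not overlap (7.28% of all tested genes lay this way), at 0.242, 1.60 and 1.68 CPM against 18.6, 4.0 and 18.3 CPM, with a log2 change of −3.54 ± 1.43 and an edgeR adjusted p of 0.905.

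**Figure D5:**
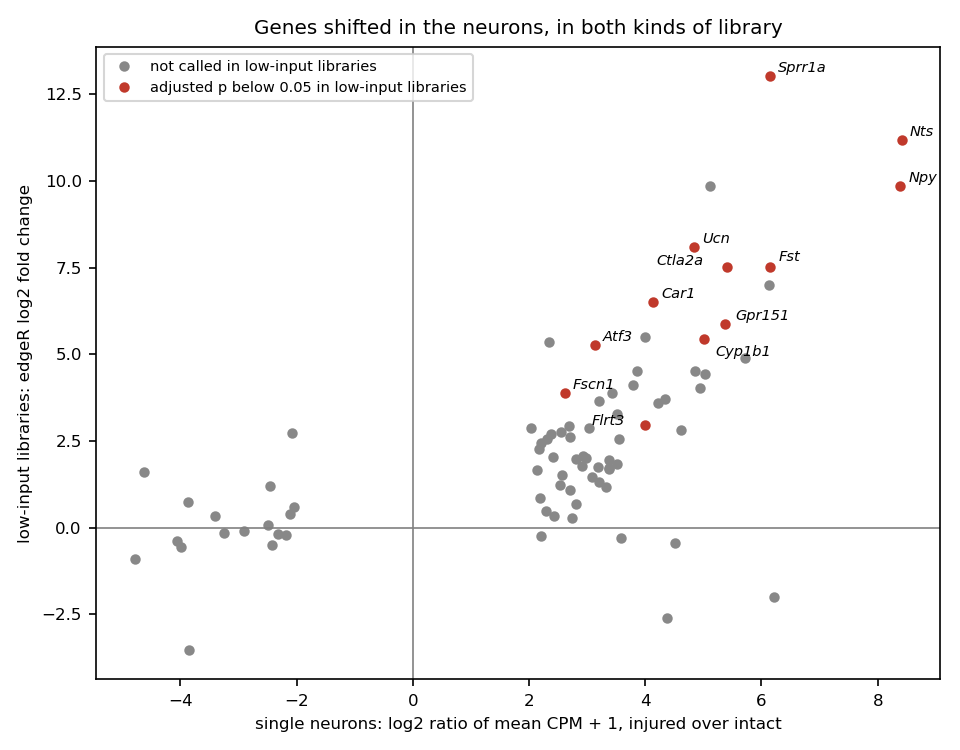
Log2 ratio in cells (horizontal, mean CPM + 1 of injured over intact) against log2 change in the low-input libraries at 1 month (vertical, edgeR) for the genes 4-fold higher or lower in cells; red marks are called in the low-input libraries. Of the 65 higher genes 60 lie above 0 on the vertical axis, and the 17 lower genes lie on both sides of 0.

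Read the other way, 17 of the 33 genes called in the low-input libraries could be described in the cells. All 17 were above 0 there with a median log2 ratio of 4.13, and 12 were past 4-fold. The other 5, named because of these values, were Cacna2d1 (0.84), Clic4 (1.74), S100a11 (0.46), Tmtc4 (0.88) and Vim (0.50). In the low-input libraries Vim, S100a11 and Clic4 were not called with the replicate block (edgeR adjusted p 0.0859, 0.127 and 0.0594), and Vim and S100a11 in none of the 6 omissions, Tmtc4 in 1 and Clic4 in 2. Cacna2d1, the channel subunit bound by gabapentin, averaged 278 CPM in injured and 155 CPM in intact cells, and in the low-input libraries it was 207, 78.1 and 126 CPM against 22.9, 17 and 33.1 CPM (edgeR adjusted p 0.00332). Its call was lost without intact replicate 1 (edgeR adjusted p 0.0524), in the 6 libraries of this age alone (0.0521) and with spike-in scaling (0.329). Spike-in scaling also ended the calls of Vim, S100a11, Clic4 and Tmtc4 (edgeR adjusted p 0.299, 0.437, 0.529 and 0.375). By list, against 0.232% of all genes tested, the called genes were 1 of 14 injury transcription factors (Atf3), 5 of 27 growth and injury effectors (Sprr1a, Gpr151, Flrt3, Cacna2d1 and Ecel1, the last called in 1 of the 6 omissions and at 0.176 by edgeR in the 6 libraries alone), 3 of 7 injury neuropeptides (Npy, Nts and Ucn) and 1 of 11 secreted genes (Fst). These gene lists were chosen with earlier results of these data known, so their counts are not independent evidence. Markers of satellite glia, of fibroblasts and vessels and of immune cells stood higher in the injured libraries. The 7 satellite glia markers summed to 1310 to 2040 CPM in the injured and to 97.8 to 624 CPM in the intact libraries, all 7 with a change above 0 and none called (median log2 change 2.50, Apoe 1130, 1810 and 1790 CPM against 7.65, 177 and 501 CPM). No marker of the 7 was at 0 in all libraries of a group. The 6 markers of fibroblasts and vessels summed to 30.4 to 61.7 CPM in the injured and to 4.22 to 7.88 CPM in the intact libraries (3 of 3 tested above 0, none called, median log2 change 2.92), with Dcn at 29, 25 and 56.7 CPM against 7.65, 5.78 and 1.21 CPM and Cldn5 at 0 in all 6. The 9 immune markers summed to 2.66 to 14.8 CPM and to 0.41 to 2.92 CPM (3 of 3 tested above 0, none called, median 1.25), with Ptprc, C1qa, Cx3cr1 and Cd74 at 0 in every intact library. The 9 Schwann cell markers summed to 593 to 774 CPM and 590 to 727 CPM, and the 4 red blood cell markers to 0.969 to 1.86 CPM and 2.14 to 3 CPM. The part of RNA from these other cells in the low-input changes was not tested.

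At 1 year the series holds 18 injured and 8 intact cells kept by the same rule. There, 71 of 8443 genes were 4-fold higher (0.841%) and 12 were lower (0.142%). Of the 15 named higher genes 7 could be described at 1 year and 1 was past 4-fold, Flrt3, at 2.64. Of the 10 lower genes 8 could be described and 1 was past 4-fold, Olfm2, at −2.33. Sprr1a, Npy and Nts were held by too few cells to be described there.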

How the data were processed

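RNA of single neurons and of low-input libraries was measured by SMART-seq2. The deposited table holds raw counts, per the file headers fragments counted by the authors with featureCounts 1.5.2 in paired-end mode over exons, summed by gene name (GENCODE vM16 with ERCC spike-ins), with no strand or multi-mapping option given. Trim Galore, STAR and mm10 are named in the submitters' processing notes, without versions. Repeat deposits of a name share 1 column, and 0 columns of counts went unused. Overlapping, antisense and near-identical genes are therefore uncertain. The 94 methylation samples are not analysed here; 3 of them carry an age of 2 months while RNA of the same cell names is labelled 1 month.

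Per cell, CPM was computed without ERCC and CT010467.1. A gene was described with 20 CPM in at least 5 of 31 cells. Log2 ratios use a pseudocount of 1 CPM, a cell weighs the same as any other in a mean, and intervals (95%, exact Poisson for pooled CPM, Clopper-Pearson for a share of 0 cells) cover counting only, not differences between animals. No doublet caller was run on these hand-picked cells. In simulated cells with the real mean levels, 32 of 100 genes changed 4-fold and 99 of 100 changed 16-fold were recovered. Of 7788 unchanged genes, 1 was called. Each gene was drawn separately, with a standard deviation between cells equal to its mean before counting error. The simulation held no neuron classes and no failed cells. It therefore cannot show how many of the real calls come from such differences between cells.

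For the low-input libraries, edgeR 4.0.16 (R 4.3.3) was used (TMM, filterByExpr, robust quasi-likelihood, 18 libraries, Benjamini-Hochberg over 14212 genes). The 18 libraries include those of older mice as well as those of this age. DESeq2 1.42.0 and limma 3.58.1 were alternatives. CPM values of these libraries are on the TMM-scaled library size. Nothing says that replicates came from separate animals, so p-values measure the spread between libraries. Same-numbered injured and intact libraries deviated together (correlations 0.206, 0.218 and 0.485 over 1669 genes with a mean above 50 CPM). A pairing is inferred from these correlations alone. The main fit held no pairing, and its calls do not allow for one. The replicate number entered as a block only in an alternative fit, which called 15 genes higher and 0 lower. The named genes are the 15 higher and 10 lower shifted genes with the largest difference in the share of cells at 20 CPM, plus members of fixed lists. Members, rule and lists were chosen with earlier results of these data known. Positions are those of the table (mm10).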

Additional observations from a re-analysis of the deposited data

Results flagged for a closer look

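In 2 of the 8 cells left out for their depth, 1 injured and 1 intact, a gene named as higher in injured cells stood above every kept intact cell with more than 3 counts. In the injured cell, L4R11M, the gene was Npy. Of its 8369 counts outside CT010467.1, 39 were Npy, a level of 4660 CPM, while the highest kept intact cell held 31.4 CPM and 3 counts in this cell correspond to 358 CPM. The other 2 injured cells left out held no Npy count, in 15071 and 4945 counts. L4R11M had 1 count each of Sprr1a and Atf3, below what 3 counts allow. This cell held 309 genes, 36.9% mitochondrial counts and 0.000479 endogenous counts per spike-in count. The cell is named L4, as are all kept cells with Npy at 20 CPM or more.

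In the intact cell, L5L20L, the gene was Prokr1, with 7 of 27674 counts, or 253 CPM. The highest kept intact cell held 16.2 CPM of Prokr1 and the highest kept injured cell 146 CPM, and 3 counts in L5L20L correspond to 108 CPM. L5L20L also held 3 counts of Pid1 (108 CPM), and the left-out intact cell L5L23M held 3 counts of Plaur (104 CPM, against 10.2 CPM in the highest kept intact cell). The left-out intact cell L5L21M held 9 counts of Gal (182 CPM) and 6 of Atf3 (121 CPM), below the highest kept intact cells (1200 and 335 CPM).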

How the results depend on the processing

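The counts of shifted genes in cells (65 higher, 17 lower) depended on how cells were averaged and scaled. Pooled counts alone gave 87 lower, medians over cells 235 higher and 140 lower, a pseudocount of 10 CPM 30 and 3, CT010467.1 kept in the total 10 lower, spike-in scaling 166 and 28, and no filter on low values 173 and 106. L4 cells alone gave 113 and 35, L5 cells alone 12 higher, and L4 cells with a mitochondrial share under 30% 104 and 36, an alternative chosen after seeing the data. Leaving out 1 cell gave 45 to 75 higher and 13 to 37 lower. Of the 25 named genes, the median over cells turned Igfbp2 to 0.28, and L5 cells alone turned Gpr151 to −0.41, Akr1b8 to −0.50 and Cyp1b1 to −1.82. Spike-in scaling moved the median of all genes from 0.06 to 0.32 in cells and by 1.30 in low-input libraries.

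In low-input libraries (33 higher, 0 lower), the replicate block gave 15 higher, DESeq2 121 and 2 lower, limma-voom 61, spike-in scaling 50, no filter 206 and 70, and the 6 libraries of 1 month alone 2 lower. Leaving out 1 library gave 6 to 19 higher, 6 without intact replicate 1 and 19 without injured replicate 2, so each library of the 6 moved the count by over 1.5 times. Besides the 10 genes given with it above (Atf3, Flrt3, Cyp1b1, Fst, Car1, Ctla2a, Vim, S100a11, Clic4 and Gal), the block changed no call of a gene named with a low-input value. Genes not called turned sign as follows. Spike-in scaling gave Xlr3b 0.29, Fn3k 0.75, Gpx3 0.48, Olfm2 1.00, Gm16551 0.98 and Fcgrt 1.02. As 1 library was left out, the log2 change ran from −1.49 to 0.43 for Xlr3b, from −0.31 to 2.27 for Prokr1, from −0.47 to 0.35 for Fn3k, from −0.51 to 0.24 for Olfm2, from −0.33 to 1.20 for Igfbp2 and from −0.53 to 0.24 for Gm16551. The causes were not tested. A count of 0 at the shallowest cell, 79135 counts, cannot show levels near 20 CPM as absent.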

Other observations

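A pair of genes outside the named ones, chosen after their values were seen, was higher in injured cells without following the L4 cells with Sprr1a. Chrna3 and Chrnb4, subunits of a nicotinic acetylcholine receptor, averaged 123 against 0.667 CPM and 68.5 against 2.33 CPM. Both were high in L5R7S (599 and 258 CPM), L5R4M (567 and 370 CPM), L5R3L (469 and 335 CPM) and L4R16 (129 and 176 CPM). These 4 cells also held the peptidergic marker Calca at 12800 CPM or more. L4R15M held 424 CPM of Chrna3, and L4R10S held 75.8 CPM of Chrnb4. No intact cell reached 20 CPM of either, although intact L5L18L and L4L17S held Calca at 18900 and 12800 CPM. In the 1-month low-input libraries neither was called (edgeR adjusted p 1 for both) and the groups overlapped. Chrna3 stood at 2.12, 0.192 and 0.884 CPM in the injured and at 0, 12.5 and 0 CPM in the intact libraries, and Chrnb4 at 0.121, 1.35 and 0 CPM against 0.375, 8.75 and 0 CPM. The 12.5 and 8.75 CPM are from the same library, intact replicate 2, so no direction is read from these values.

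The enzymes Car3 (256 against 2.66 CPM in cells) and Pde1a (51.6 CPM against no count in a kept cell) and the growth factor Fgf3 (33.5 CPM against no count in a kept cell), also chosen after their values were seen, were higher in injured cells and not called in the low-input libraries, with edgeR adjusted p of 0.0608, 0.0616 and 0.0683. Fgf3 had no count in the 3 intact low-input libraries and stood at 14.2, 2.56 and 9.63 CPM in the injured ones.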
